A study of Homo sapiens
Mus musculus and Mus musculus and Homo sapiens with 3 samples.

Results

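The cytosolic ribosomal protein genes encode the proteins of the cytosolic ribosome, and 80 of them were followed here among 15472 gene symbols found in all 4 deposited tables. They were chosen by symbol: RPL or RPS, a number and at most 1 further letter (A, X or L), plus RPLP0, RPLP1, RPLP2 and RPSA. The rule used no measured value. It took 49 proteins of the large subunit and 31 of the small subunit, and 79 of the 80 passed the filter on low counts; the exception was RPL3L, a paralog of RPL3. The labels describe human and mouse pluripotent stem cells that were differentiated in vitro into motor neurons as embryoid bodies, which are cell aggregates. Before differentiation every culture, in both species, was transduced with a lentivirus that expressed GFP from a CAGGS promoter and carried a short barcode. Dissociated cells were sorted for GFP and profiled by droplet-based single-cell RNA sequencing that counts transcript 3' ends. Human 1 (line NCRM1, induced pluripotent) and mouse 1 (C57BL/6 embryonic stem cells) came from 1 mixed library; human 2 (line RUES1, labelled as induced pluripotent) and mouse 2 (C57BL/6 embryonic stem cells) were libraries of their own. Sampling was every 48 h in human and every 24 h in mouse. The tables do not give the day of a cell, so a difference between classes can hold a difference in day.

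Ribosomal proteins are made in near-equal numbers, assembled with ribosomal RNA in the nucleolus and exported as large and small subunits. Most of their messages begin with a pyrimidine-rich stretch, the terminal oligopyrimidine (TOP) motif, through which growth signals that pass by the kinase mTOR set their translation together. Neural progenitors are rapidly growing cells, and neurons leave the cell cycle and build axons.

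The 4 tables held 28577630 to 83969715 unique molecular identifiers (UMIs, counted molecules) in 1881 to 2783 cells, and 2321, 1805, 1811 and 2674 cells were used of human 1, human 2, mouse 1 and mouse 2. Classes were set by marker UMIs in each cell after thinning to 5000 UMIs. Non-cycling progenitors had SOX2 and no TOP2A, cycling progenitors had both, NEUROG2-positive cells had the proneural factor of cells leaving the progenitor state, and STMN2-positive neurons had at least 5 UMIs of the neuronal tubulin-binding protein stathmin 2. COL1A2-positive cells had at least 2 UMIs of a collagen chain gene. The neuronal markers INA, NEFM and ELAVL3 were present in the STMN2-positive cells of all 4 tables, while TUBB3 was listed at 0 in human 1. The motor neuron genes MNX1, ISL1, LHX3 and SLC18A3 were at 37.6 to 365 CPM (UMIs of the gene scaled to a common total) there. The collagen genes COL1A1 and COL3A1 were at 188.8 to 2122 CPM in the COL1A2-positive cells of human 1, human 2 and mouse 2. Mouse 1 held 3 COL1A2-positive cells and gave no sum, so mouse values of this class come from the 42 cells of mouse 2. The tables of 1 species had different numbers of gene entries (32739 and 56832 in human, 27999 and 54087 in mouse), and levels are therefore given for each table.

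STMN2-positive neurons devoted a smaller share of their transcripts to ribosomal proteins than progenitors in every table. The share of all UMIs was 36.3% in non-cycling progenitors, 33.0% in NEUROG2-positive cells and 22.4% in STMN2-positive neurons of human 1. In human 2 the 3 stages were at 24.2%, 21.9% and 15.0%. In mouse 1 they were at 35.0%, 33.9% and 23.7%, and in mouse 2 at 26.4%, 25.5% and 13.9%. The order of the stages was the same in all 4 tables, and most of the difference lay between NEUROG2-positive cells and neurons. Neurons had 0.616, 0.618, 0.679 and 0.526 times the share of non-cycling progenitors in human 1, human 2, mouse 1 and mouse 2. No p-value is given for a share, since it is a score over the chosen genes.

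**Figure D1:**
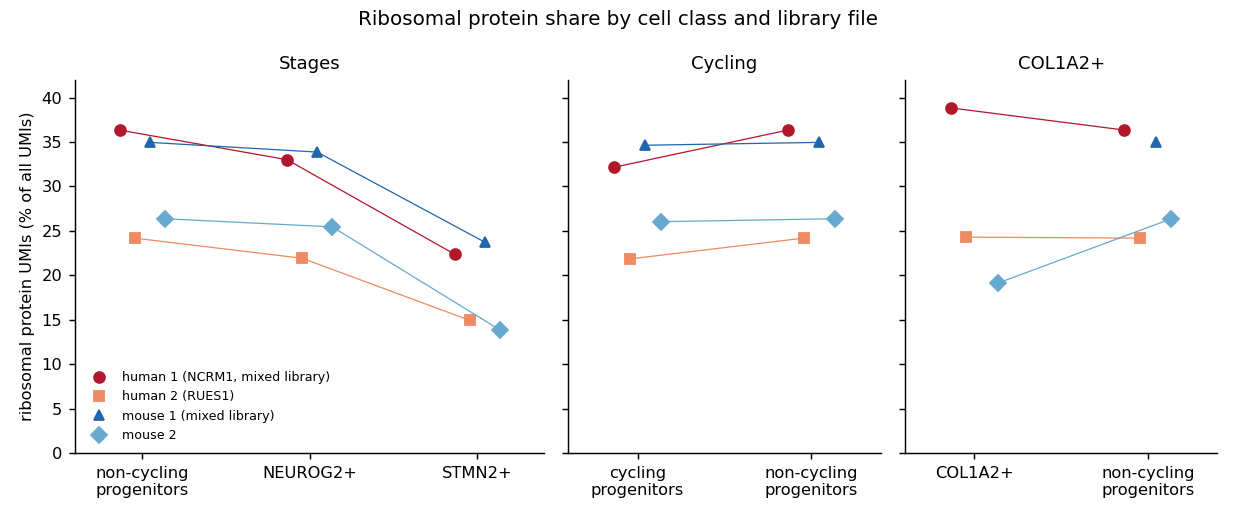
Ribosomal protein UMIs as a percentage of all UMIs (y axis, from 0) in each cell class; a point is the summed cells of 1 table, and lines join classes of the same table. Neurons lie at 13.9% to 23.7%, below the progenitors of their own table, and the tables numbered 1 lie above those numbered 2 in each class with both.

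The fall in share was a fall in molecules per cell as well. Neurons had 2047, 2520, 3423 and 3249 ribosomal protein UMIs per cell in human 1, human 2, mouse 1 and mouse 2, against 4687, 4299, 6986 and 8530 in non-cycling progenitors. UMIs of all other genes came to 7093, 14321, 10992 and 20146 per neuron, against 8210, 13469, 12997 and 23809 per non-cycling progenitor. Fewer molecules in a cell and less efficient capture from it cannot be told apart in such counts. The nuclear RNA MALAT1 moved the other way, at 69507, 56129, 23048 and 21655 CPM in neurons and 25308, 30832, 5485 and 4144 CPM in non-cycling progenitors. With UMIs of MALAT1 and of mitochondrial genes taken out of the total, an alternative chosen after seeing the data, neurons were still at 24.7%, 16.7%, 24.9% and 14.4%, against 38.6%, 26.3%, 35.9% and 26.8% in non-cycling progenitors.

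Gene by gene, 77 of the 79 tested members were lower in STMN2-positive neurons than in non-cycling progenitors of each species (edgeR's quasi-likelihood test with Benjamini-Hochberg adjustment over 12456 genes, library table as a block). Of all genes tested, 25.2% were lower in human and 29.4% in mouse. In neither species was any member higher by edgeR (22.0% and 28.8% of all genes were), by DESeq2 or at an unadjusted p under 0.05. The members' median log2 change was -0.81 in human and -0.97 in mouse, against -0.03 and 0.00 over all genes tested. The 2 members that were not called were the rare paralogs RPL10L and RPL39L. The call rests on comparing classes within a table, as without the table as a block 4 members in human and 9 in mouse were lower. The replicates are 2 tables per species, the human ones of different lines. The block takes out differences in level between tables. The p-values measure only the spread that remains, estimated over all classes of both species together.

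**Figure D2:**
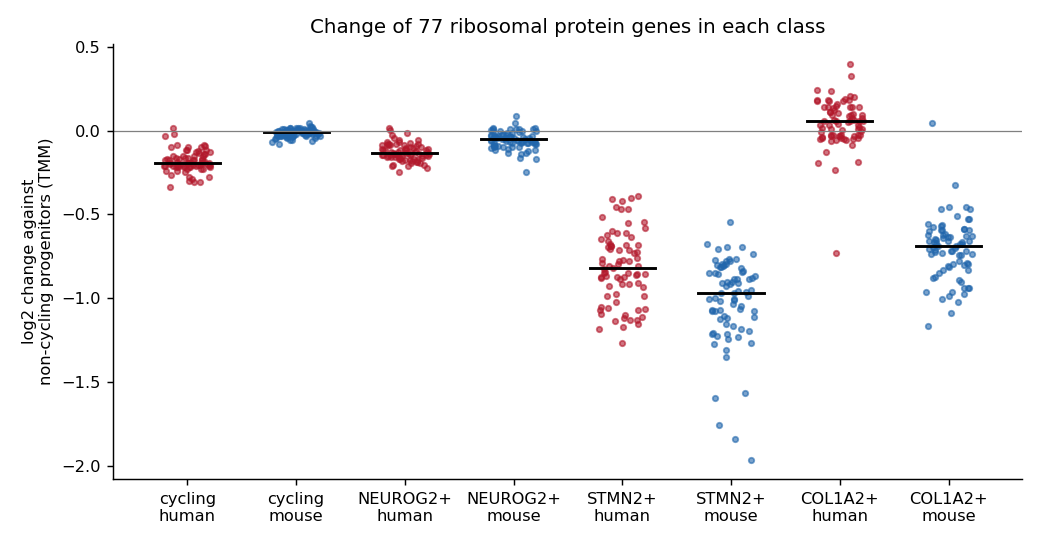
Log2 change of 77 members against non-cycling progenitors (y axis) in 4 cell classes of human and mouse; a point is a gene from the fit over all tables, a black bar the median, and RPL10L and RPL39L are left out. The neuron columns lie wholly below 0, the cycling and NEUROG2-positive columns closer to it, and the COL1A2-positive columns differ between human and mouse.

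The decline was not even over the members. Among the 77, changes in human neurons ran from -1.27 for RPL41 to -0.39 for RPL10, and in mouse neurons from -1.96 for RPS27L to -0.55 for RPL10. To set the members against each other, the fit was repeated with the summed ribosomal protein UMIs as library size, so that a value of 0 means a change equal to that of the whole set. On this scale 19 members were higher and 19 lower in human neurons, where 52.7% and 9.71% of all genes were higher and lower. In mouse neurons 21 were higher and 16 lower, where 59.3% and 10.1% of all genes were. These counts depend on the number of tables: without human 1 they were 9 and 7 in human, without human 2 they were 8 and 8, and without mouse 2 they were 5 and 8 in mouse. With only neurons and non-cycling progenitors in the fit, 9 were higher and 8 lower in human, and 5 and 8 in mouse. Without the table as a block no member was called on this scale in any comparison of classes.

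RPL10, a large-subunit protein that joins late in assembly, fell least. It had 6294 and 6282 CPM in neurons of human 1 and human 2, against 7527 and 7675 CPM in non-cycling progenitors. In mouse it had 3265 and 1009 CPM in neurons of mouse 1 and mouse 2, against 3662 and 1327 CPM in non-cycling progenitors. Each table's neurons were below its progenitors, but by less than the other members. Relative to the summed set RPL10 was higher by 0.42 ± 0.06 (log2 ± SE) in human (adjusted p = 3.1e-05) and by 0.45 ± 0.06 in mouse (adjusted p = 9.4e-06; edgeR, n = 2 tables per species). Both calls held without any 1 of the 4 tables.

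The other members higher on this scale in both species were RPL15, RPL24, RPL37A, RPL6, RPL9, RPS27 and RPS4X, with log2 values between 0.15 and 0.35 in human and between 0.18 and 0.30 in mouse. The calls of RPS4X were lost without human 1, human 2 or mouse 2, with values between 0.13 and 0.20 over those tables left out. RPS4X is the X-linked small-subunit protein, and RPL24 sits at the interface of the subunits. Human calls further up the scale included RPL34 and RPS26, which in mouse were at 0.15 and 0.01 and were not called. RPL34, a large-subunit protein, had 4424 and 3688 CPM in neurons of human 1 and human 2, against 5241 and 4666 CPM in non-cycling progenitors, and was at 0.40 ± 0.06 relative to the set (adjusted p = 7.1e-05, edgeR).

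At the other end, the acidic stalk of the large subunit, which recruits elongation factors, held members both below and near the set. RPLP1 had 3948 and 3002 CPM in neurons of human 1 and human 2, against 8567 and 5989 CPM in non-cycling progenitors. In mouse it had 2835 and 1458 CPM in neurons of mouse 1 and mouse 2, against 6500 and 4006 CPM in non-cycling progenitors. Relative to the set RPLP1 was at -0.36 ± 0.06 in human and -0.60 ± 0.06 in mouse (log2 ± SE, adjusted p = 9.3e-05 and 4.2e-07, edgeR). Its binding platform RPLP0 was at -0.30 in human and -0.18 in mouse and was called in both; the human call was lost without human 1 (-0.23) and the mouse call without mouse 1 (-0.20) or mouse 2 (-0.15). Its partner RPLP2 was at -0.01 and -0.13 and was called in neither (adjusted p = 0.96 and 0.098, edgeR), and the difference between RPLP1 and RPLP2 was not tested. The mouse value of RPLP2 rested on the table: it was -0.26 and called without mouse 1, and -0.0050 without mouse 2.

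RPS2, a small-subunit protein at the entry of the messenger RNA channel, showed a larger relative decline in mouse. It had 4997 and 1673 CPM in neurons of human 1 and human 2, against 10584 and 3227 CPM in non-cycling progenitors. It had 2438 and 3207 CPM in neurons of mouse 1 and mouse 2, against 6788 and 10216 CPM in non-cycling progenitors. Relative to the set the values were -0.32 ± 0.07 in human and -0.84 ± 0.07 in mouse (adjusted p = 0.00053 and 2.8e-08, edgeR). Neurons were below progenitors of the same table throughout, although the 2 human tables differed so much in level that the human groups overlap.

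RPS27L, a paralog of RPS27 that p53 induces in human cells, was the most reduced member in mouse neurons. It had 463 and 350 CPM in neurons of human 1 and human 2, against 874 and 740 CPM in non-cycling progenitors. Mouse neurons had 447.4 and 447.5 CPM in mouse 1 and mouse 2, against 1155 and 1814 CPM in non-cycling progenitors. The relative values were -0.31 ± 0.10 in human and -0.97 ± 0.10 in mouse (adjusted p = 0.015 and 5.8e-07, edgeR). The human call was lost without human 1 or without human 2, with values of -0.39 and -0.22. RPS27 itself went the other way, at 0.15 in human and 0.29 in mouse.

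The remaining members lower on this scale in both species were RPL12, RPL41, RPS12, RPS16, RPS18 and RPSA. RPL12 sits at the base of the stalk and was at -0.29 in human and -0.76 in mouse. RPL41, a very short peptide, was at -0.45 and -0.24. Its mouse call was lost without mouse 1 (-0.06), human 1 or human 2 (-0.24 each). RPSA, which is also known as the laminin receptor precursor, was at -0.25 in human and -0.36 in mouse. Without human 2 the human calls of RPL41 and RPSA were lost, at -0.41 and -0.22.

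**Figure D3:**
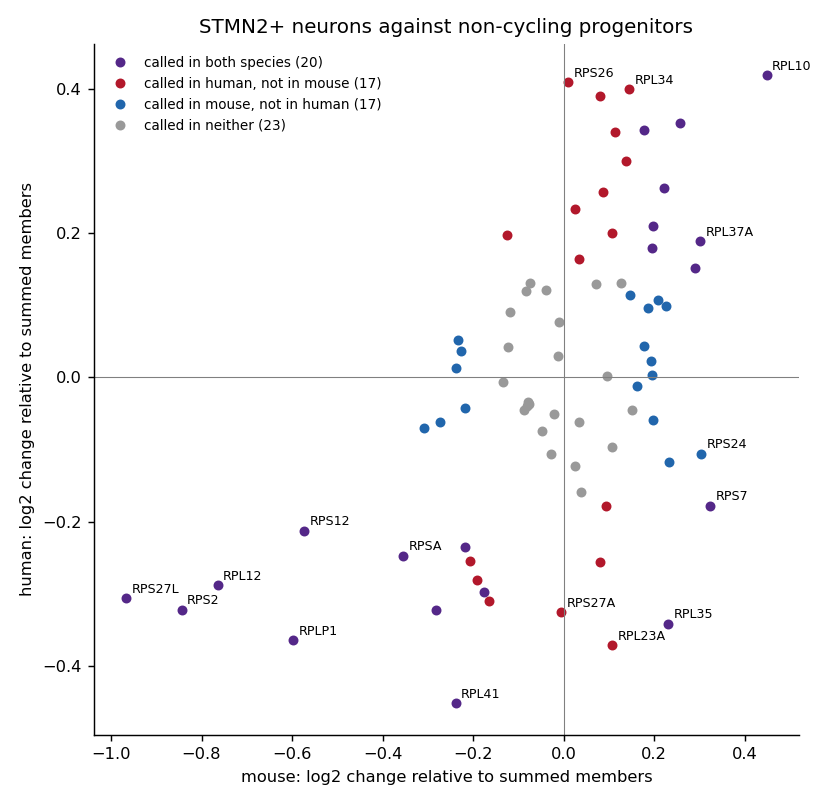
Change of each of 77 members relative to the summed set in STMN2-positive neurons against non-cycling progenitors, human (y axis) against mouse (x axis), both on the log2 scale; a point is a gene, coloured by the species in which it passed an adjusted p of 0.05. RPL10 lies at the upper right, RPS27L, RPS2, RPL12 and RPLP1 at the lower left, and RPL35 and RPS7 in the quadrant where human is below and mouse above 0.

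Across these 77 members, which are genes of the same libraries and not independent replicates, the human and mouse values correlated with Pearson's r of 0.53 and Spearman's rho of 0.46. Of the 38 members called in human and the 37 called in mouse, 8 were higher in both, 10 were lower in both and 2 were opposite. Values on this scale are centred near 0 by construction, since the library size is the members' own sum. Neither the overlap over all genes nor the overlap of unrelated calls was worked out, so these counts have nothing to be set against.

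The opposite pair was RPL35, a protein at the exit of the peptide tunnel, and RPS7, a small-subunit protein. RPL35 had 2074 and 1186 CPM in neurons of human 1 and human 2, against 4343 and 2375 CPM in non-cycling progenitors. In mouse it had 2994 and 1502 CPM in neurons of mouse 1 and mouse 2, against 3967 and 2265 CPM in non-cycling progenitors. Neurons were again lower in each table, while the groups of mouse tables overlapped. The difference of the human and the mouse change, tested in the same fit, was -0.57 ± 0.10 for RPL35 (adjusted p = 0.00075) and -0.50 ± 0.10 for RPS7 (adjusted p = 0.0020, edgeR). The mouse calls of RPS7 and RPS24 were lost without mouse 2, at 0.23 and 0.21. In all, 7 members had a higher and 8 a lower relative change in human than in mouse neurons, against 6.18% and 13.9% of all genes. Among the higher were RPS27L at 0.66, RPS2 at 0.52, RPL12 at 0.48, RPS26 at 0.40, RPS12 at 0.36 and RPL18 at 0.32. The lower ones beside RPL35 and RPS7 were RPL23A, RPS24, RPL21, RPS3, RPS27A and RPS10. These counts fell to 2 and 2 without human 1, to 1 and 1 without human 2, and to 2 and 4 without mouse 2.

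On the scale of all genes, 12 members differed between the changes of the species, each with a smaller fall in human neurons, against 11.4% of all genes that were higher in this test. In the other direction edgeR called 0, with 2 at an unadjusted p under 0.05, and DESeq2 called 2; 11.6% of all genes were lower. The count of 12 was 0 without human 2 and 1 without mouse 2. RPS26, at the exit of the messenger RNA channel, had 1670 and 880 CPM in neurons of human 1 and human 2, against 2122 and 1025 CPM in non-cycling progenitors. Mouse neurons had 2967 and 1780 CPM of RPS26 in mouse 1 and mouse 2, against 4256 and 3364 CPM in non-cycling progenitors.

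**Figure D4:**
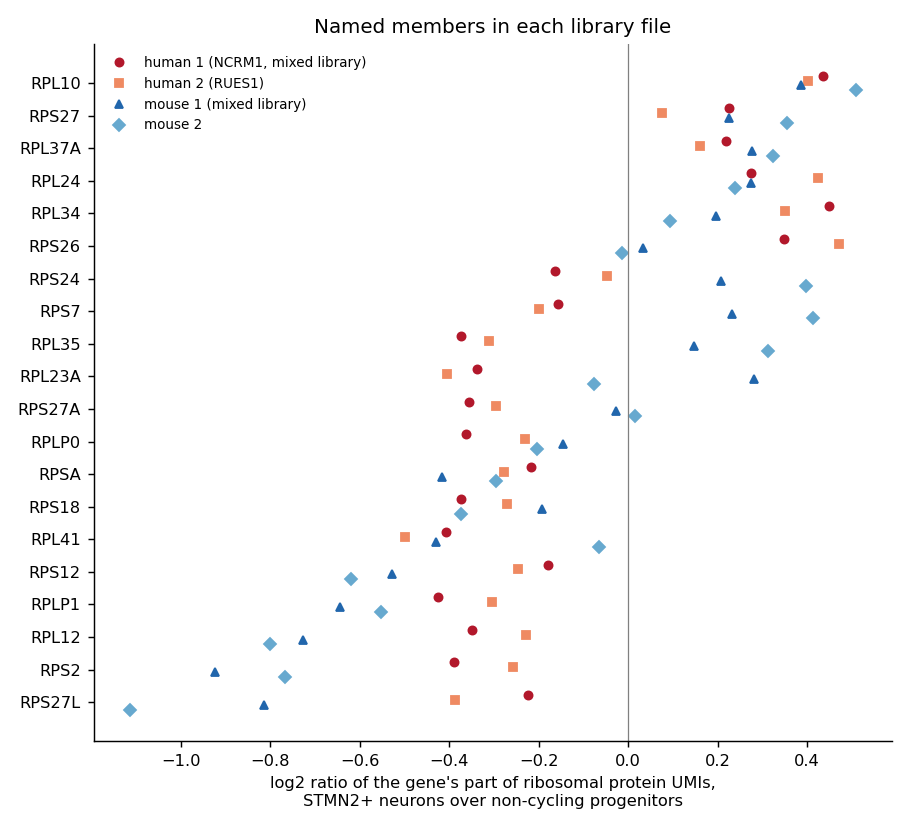
Log2 ratio of each named member's part of the ribosomal protein UMIs, STMN2-positive neurons over non-cycling progenitors (x axis), in each of the 4 tables; a point is 1 table. Among the members drawn, the 2 tables of a species lie on the same side of 0 for all but RPL23A, RPS26 and RPS27A, each of them split in mouse.

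Of the other members chosen for their roles, RPL5 and RPL11, which join an RNA particle that can bind MDM2, were at 0.04 and 0.20 in human neurons and -0.23 and 0.11 in mouse neurons relative to the set. Only RPL11 in human and RPL5 in mouse passed the test. The RPL11 call was lost without human 1 or human 2, and that of RPL5 without any table but mouse 1, with -0.03 without mouse 2. RPL22, the paralog of RPL22L1, was at -0.03 in human and -0.08 in mouse, and RPS19, which is mutated in Diamond-Blackfan anaemia, at -0.12 and 0.02; none of these 4 values passed, and the mouse tables lay on both sides of 0 for either gene. RPS27A, which is made as a fusion with ubiquitin, was at -0.33 in human, where it was called, and at -0.01 in mouse.

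Runs of C and T near the start were looked for in the mouse transcripts. Starts of GENCODE M21 transcripts (mouse build mm10) were available for all 80 members, and 28 of them (35.0%) held a run of at least 7 C or T within the first 30 bases, against 3376 of 21840 protein-coding genes (15.5%). Annotated starts can miss the true start by some bases, so the lack of a run says nothing of a gene. A TOP motif stands at the very start of a message, so a run further in need not be one. The first 30 bases of 6 members follow because they show both directions of change with and without a long run; capitals mark the longest run of C and T. The first 3 were lower in mouse neurons relative to the set, and the last 3 were higher.
Rps2 (chr17:24720110-24721929, plus strand): CTTCTTCTTCTTCgggagaacacgtgagtc
Rplp1 (chr9:61913284-61914542, minus strand): gaTCTTTTCCTCagctgccgccaaggtgct
Rps12 (chr10:23785183-23787275, minus strand): TTTagtgggaggagttgcacatgcgcacag
Rps24 (chr14:24490718-24496959, plus strand): CTCTTTTCCTCCTCTCCagctccggcgccg
Rps7 (chr12:28630854-28635953, minus strand): ccacctacttccgctgtccccaCCTCTTTT
Rpl10 (chrX:74270812-74273135, plus strand): ggaagataggccgCCTatataaggcgtgag
Runs of 13 and 10 bases stood in Rps2 and Rplp1, whose values were -0.84 and -0.60, and runs of 17 and 8 bases in Rps24 and Rps7, whose values were 0.30 and 0.32. The Rps7 run began only at base 23 and reached the end of the 30 bases, so it can be longer than shown. Rps12, at -0.57, and Rpl10, at 0.45, had runs of 3 bases.

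Genes that serve the ribosome without being members of the set moved with it in neurons. Of 38 tested genes of ribosome biogenesis, 30 were lower in human and 37 in mouse neurons, where 25.2% and 29.4% of all genes were. Their median log2 changes were -0.85 and -1.74, against -0.03 and 0.00 over all genes. NCL (nucleolin) had 276.6 and 564.8 CPM in neurons of human 1 and human 2, against 611.4 and 1080 CPM in non-cycling progenitors. In mouse NCL had 361.9 and 421.0 CPM in neurons of mouse 1 and mouse 2, against 1234 and 2064 CPM in non-cycling progenitors. The groups of tables did not overlap in either species. NPM1 changed by -1.51 in human and -2.18 in mouse.

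Of 17 genes listed for messages that also carry a TOP motif, 15 were lower and 1 higher in human neurons, and 14 were lower in mouse neurons. The list holds translation factors but also other genes, among them VIM, NAP1L1 and HNRNPA1. VIM was also used as a progenitor marker. PABPC1, the poly(A)-binding protein, was at -1.20 in human and -1.78 in mouse, and the 1 that was higher in human was the elongation factor gene EEF2 at 0.33. The 4 tested subunit genes that the symbol rule leaves out, among them FAU and RPL36AL, were lower in both species, RPL22L1 by the most at -2.51 and -2.03. Among 76 mitochondrial ribosomal proteins, 36 were lower and 2 higher in human neurons, and 61 were lower and 1 higher in mouse neurons. In the same tests 25.2% of all genes were lower and 22.0% higher in human, and 29.4% and 28.8% in mouse.

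Of 19 translation initiation factors and other translation genes, 8 were lower and 4 higher in human, where 25.2% and 22.0% of all genes were, and 12 were lower and 2 higher in mouse, where 29.4% and 28.8% were. The human share of higher genes was thus near that of all genes. EEF1A2, the elongation factor form of neurons and muscle, had 76.6 and 297 CPM in neurons of human 1 and human 2, against 4.05 and 13.9 CPM in non-cycling progenitors. Its ubiquitous counterpart EEF1A1 fell by 0.51 in human and by 0.41 in mouse on the log2 scale. Of 14 genes of the MYC family and growth control, 2 were lower and 4 higher in human and 3 were lower and 5 higher in mouse, a share of higher genes near that of all genes in human. MYCN, a MYC family factor known to promote ribosome production, changed by -0.89 in human and -1.25 in mouse. The medians over the 14 genes were 0.04 and 0.12, so MYCN does not stand for its list. A part of MYCN in the fall of the set was not tested.

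NEUROG2-positive cells gave no call on any member. Their share differed from that of non-cycling progenitors by -3.33 and -2.26 percentage points in human 1 and human 2, and by -1.09 and -0.92 points in mouse 1 and mouse 2. Of 79 members, 75 in human and 68 in mouse were on the lower side, with medians of -0.13 and -0.05. edgeR and DESeq2 called 0 members in either direction, and at an unadjusted p under 0.05 edgeR had 1 lower member in human and none in mouse. Among all genes 1.90% were higher and 0.739% lower in human, and 2.58% were higher and 1.83% lower in mouse. In the fit on summed members 0 were called too, where 2.16% and 0.369% of all genes were higher and lower in human and 2.26% and 1.18% in mouse. DESeq2 also gave 0, as did the unadjusted threshold. The difference between the species gave 0 calls by edgeR and DESeq2 in both fits, with 2 higher at an unadjusted p under 0.05 relative to the set, where 0.345% and 0.169% of all genes were higher and lower on the scale of all genes and 0.249% and 0.0963% relative to the set.

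Cycling progenitors likewise gave no call on any member in the main fit, but their share was lower in the human tables and near that of non-cycling ones in mouse. Cycling cells had shares of 32.2%, 21.9%, 34.6% and 26.0% in human 1, human 2, mouse 1 and mouse 2, against 36.3%, 24.2%, 35.0% and 26.4% in non-cycling cells. The differences were -4.18 and -2.34 points in the human tables and -0.32 and -0.33 points in the mouse tables. Of 79 members, 77 in human and 55 in mouse were on the lower side, with medians of -0.19 and -0.01. In the difference of the human and the mouse change 78 were on the lower side, with a median of -0.18. Cycling cells nonetheless had more ribosomal protein UMIs per cell, 5084, 4941, 8509 and 9097 in human 1, human 2, mouse 1 and mouse 2, against 4687, 4299, 6986 and 8530 in non-cycling cells. This was not particular to the set. UMIs of all other genes came to 10723, 17664, 16056 and 25832 per cycling cell, against 8210, 13469, 12997 and 23809 per non-cycling cell. edgeR and DESeq2 called 0 members in human and in mouse, with 21 lower and 1 higher member in human and none in mouse at an unadjusted p under 0.05 (edgeR). Of all genes 2.30% and 0.169% were called higher, and 0.562% and 0.0161% of all genes were called lower. Relative to the set edgeR and DESeq2 called 0, with 1 higher in human at an unadjusted p under 0.05, where 2.82% and 0.201% of all genes were higher and lower in human and 0.0883% and 0.00803% in mouse. The difference between the species likewise gave 0 calls by edgeR and DESeq2, with 1 lower at an unadjusted p under 0.05. Of all genes 0.490% and 0.0321% were higher and lower in that difference, and 0.530% and 0.00803% relative to the set. With only the 2 classes in the fit, 8 members were lower and 1 higher in human.

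COL1A2-positive cells had a lower share than progenitors in mouse 2 and not in human 1 or human 2. Their share was 38.8% against 36.3% in non-cycling progenitors of human 1, and 24.3% against 24.2% in human 2. In mouse 2 it was 19.1% against 26.4%. The 3 cells of mouse 1, too few for the fit, were at 34.0% against 35.0%, and with the looser gate of at least 1 COL1A2 UMI its 8 cells were at 34.5% against 35.0%. The lower share of mouse 2 was thus not seen in the few cells of mouse 1, and a difference between species cannot be told apart from one between mouse tables. Among human cells, RPL14 and RPS4X were the 2 higher members and RPS27L the 1 lower, where 9.29% and 11.4% of all genes were higher and lower. In mouse 2, 75 members were lower, where 13.2% of all genes were, with a median of -0.69 against -0.12 over all genes; 0 were higher by edgeR, by DESeq2 or at an unadjusted p under 0.05. No human member was higher without human 1 or without human 2, and none was lower without human 2. The difference of the changes was called for 69 members with the human value higher, against 6.09% of all genes, and for 1 lower, against 7.74%, which was lost without human 1 or human 2. The mouse value rests on 42 cells of 1 table, and its test takes the spread from the other sums. Without the table as a block 0 members were called in this class.

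The counts in mouse COL1A2-positive cells depended on the gate. With at least 1 COL1A2 UMI as the gate, 20 members were lower in mouse and 12 differed between species. MALAT1 stood at 29303 CPM in these cells of mouse 2, against 4144 CPM in non-cycling progenitors, while human 1 and human 2 had 29672 and 26412 CPM against 25308 and 30832 CPM. Epithelial markers also moved with this class in mouse 2: all 5 of KRT8, KRT18, KRT19, EPCAM and CDH1 were above the non-cycling progenitors there, for example KRT18 with 246 against 46.3 CPM. In human 1 and human 2 KRT18 had 46.8 and 34.3 CPM in COL1A2-positive cells, against 61.2 and 78.4 CPM. Endothelial markers were at or near 0. The part of MALAT1 and of the epithelial genes in the result was not tested.

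Within the set RPS27L stood apart in COL1A2-positive cells. It had 598 and 378 CPM in COL1A2-positive cells of human 1 and human 2, against 874 and 740 CPM in non-cycling progenitors. In mouse 2 it had 2108 CPM, against 1814 CPM. Relative to the set it was at -0.81 ± 0.10 in human and 0.74 ± 0.13 in mouse (adjusted p = 4.7e-05 and 0.00035), and the difference of the changes was -1.54 ± 0.16 (adjusted p = 9.2e-06, edgeR). The human value was -0.64 without human 2 and was then not called.

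In all, 2 members were higher and 3 lower than the set in human COL1A2-positive cells, where 7.40% and 10.8% of all genes were. RPL14 and RPS4X were higher at 0.33 and 0.26, and RPS19 and RPSA were lower at -0.31 and -0.27 beside RPS27L. The calls of RPS19 and RPS27L were lost without human 2, and that of RPSA without human 1 or human 2. Over the tables left out RPS19 lay between -0.36 and -0.25, and RPSA between -0.33 and -0.21. No human member was called higher without human 1 or without human 2. In mouse 6 were higher and 8 lower, where 26.9% and 1.45% of all genes were. Without human 1 these were 2 and 4, and without human 2 they were 3 and 5. The mouse ones named by size were RPL24, RPL37A, RPL39 and RPS19 at 0.36, 0.23, 0.23 and 0.22, and RPL29, RPL35A, RPS2, RPL26 and RPL17 at -0.48, -0.40, -0.34, -0.32 and -0.30. With the looser gate none of the mouse members was called on this scale.

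The set as a whole overlapped between human and mouse. In non-cycling progenitors the share was 36.3% in human 1 and 35.0% in mouse 1 of the mixed library, a difference of 1.38 points. Between the second libraries it was 24.2% in human 2 and 26.4% in mouse 2, a difference of -2.18 points. The mean was 30.3% ± 8.59 in human and 30.7% ± 6.07 in mouse (SD, n = 2 tables each), so the difference between species was within the spread between tables.

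The same spread showed in single members. Between the second and the first table, the CPM in non-cycling progenitors had a median ratio of 0.768 over 76 human members above 100 CPM, and 21 of them were below 0.5. In mouse the median was 0.788 over 77 members, and 15 were below 0.5. RPL13A had 565 CPM in human 2 and 7933 in human 1, and 199 CPM in mouse 2 and 6618 in mouse 1. RPS20 had 191 CPM in human 2 and 3479 in human 1, while mouse 2 had 7230 and mouse 1 had 5841. The second tables list 407 and 253 rows of ribosomal protein pseudogenes in human and mouse against 2 and 16 in the first tables, and those rows hold 0.006% to 0.132% of UMIs in any class. The median ratio in human was 0.778 over the 66 members with such rows in the second table and 0.737 over the 10 members without, and in mouse it was 0.732 over 58 members with such rows and 0.848 over 19 without. The part of such rows in the ratios was not tested.

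**Figure D5:**
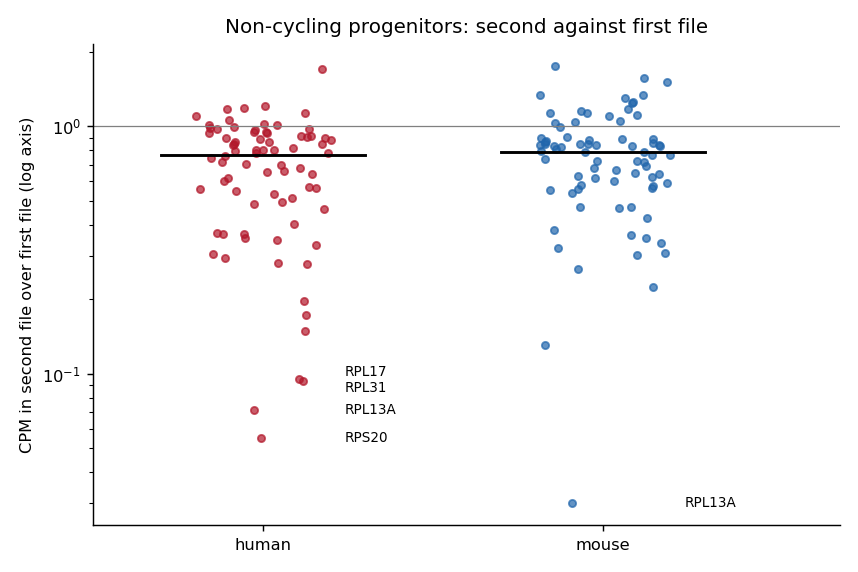
Ratio of CPM in the second over the first table in non-cycling progenitors (y axis, log scale) for members above 100 CPM in the first table; a point is a gene and a black bar the median. The medians are 0.768 in human and 0.788 in mouse, with RPS20, RPL13A, RPL31 and RPL17 lowest in human (0.0548 to 0.0949) and RPL13A lowest in mouse (0.0300).

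Against that spread, edgeR called 2 members higher and 3 lower in human than in mouse non-cycling progenitors, where 17.3% and 15.6% of all genes were called. Both human tables lay above both mouse tables for 20 of 79 members, below for 20 and overlapped them for 39; over all genes 35.8% lay above and 26.5% below. In STMN2-positive neurons 2 were higher and 2 lower, where 14.6% and 15.0% of all genes were. RPL7A, RPL39L and RPS10 were among those called in both classes. Leaving out 1 table moved the counts in non-cycling progenitors to 1 higher and 13 lower (without human 1) or 4 higher and 1 lower (without mouse 1), and in neurons to 1 and 7 or 7 and 1. With the replicate number as a block, which pairs the species of the mixed library, 9 were higher and 20 lower in non-cycling progenitors and 18 higher and 16 lower in neurons.

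RPL39L, a paralog of RPL39 known in mouse for its part in spermatogenesis, was barely detected in the mouse cells. In non-cycling progenitors it had 104 and 137 UMIs in human 1 and human 2, against 1 UMI each in mouse 1 and mouse 2. The human level was 119-fold the mouse level in the mixed library (95% exact interval 21.0 to 4762) and 277-fold between the second libraries (49.0 to 11034), intervals that cover counting error only. In human its level was 24.2 and 26.3 CPM in neurons of human 1 and human 2, against 19.2 and 27.3 CPM in non-cycling progenitors, and its change there was 0.01 (adjusted p = 1.00, edgeR). It thus stood 0.82 ± 0.27 above the falling set (adjusted p = 0.015, edgeR), a call that was lost without human 1 or human 2. RPL39 itself had 4690 and 3609 CPM in those neurons, against 6970 and 5408 CPM. RPL3L and RPL10L, the paralogs of muscle and testis, had at most 0.43 CPM in any table's neurons or non-cycling progenitors.

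RPL7A, a large-subunit protein, had 5074 and 5977 CPM in human 1 and human 2, against 2414 and 1902 CPM in mouse 1 and mouse 2, a log2 difference of 1.15 ± 0.33 (adjusted p = 0.018, edgeR). RPS10 went the other way with 1209 and 2067 CPM in human, against 4052 and 4451 CPM in mouse, a log2 difference of -1.60 ± 0.30 (adjusted p = 0.0016, edgeR). RPL36A had 1097 and 818 CPM in human, against 3821 and 2381 CPM in mouse. These differences can hold counting and annotation differences between the tables, which cannot be told apart from species here. Leaving out 1 table ended the calls of RPL7A and RPL36A in at least 1 case and not that of RPS10.

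The balance of the subunits changed little. Large-subunit genes made up 61.1% and 59.4% of ribosomal protein UMIs in neurons of human 1 and human 2, against 59.2% and 56.7% in non-cycling progenitors. In mouse the values were 55.9% and 54.8% in neurons of mouse 1 and mouse 2, against 55.9% and 53.6%. The median log2 change in neurons was -0.73 for large-subunit and -0.92 for small-subunit members in human, and -0.96 and -0.99 in mouse.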

How the data were processed

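The deposited tables held whole-number UMI counts per gene and cell, which the authors made with Cell Ranger 3.1.0 and the builds hg38 and mm10, per the submitters' processing notes. The sources used here name no gene annotation for them. The species of each table of the mixed sample was read from the case of its gene symbols. Cells with under 1000 UMIs, under 500 genes or over 10% mitochondrial UMIs, called doublets and 60 barcodes shared by both tables of the mixed library were left out. Cells were thinned to 5000 UMIs for classing only. STMN2-positive cells needed at least 5 STMN2 UMIs, no SOX2 and under 2 COL1A2 UMIs, whatever their NEUROG2. The other classes needed under 5 STMN2 UMIs. NEUROG2-positive cells had at least 1 NEUROG2 UMI and under 2 COL1A2 UMIs. Progenitors had at least 1 SOX2 UMI, no NEUROG2 and under 2 COL1A2 UMIs. COL1A2-positive cells had at least 2 COL1A2 UMIs and no NEUROG2. SOX2 and TOP2A were not used for NEUROG2-positive and COL1A2-positive cells, which can thus include SOX2-positive or dividing cells. Raw counts were summed per class and table and tested in edgeR 4.0.16 (quasi-likelihood, TMM scaling, Benjamini-Hochberg adjustment at 0.05, 12456 genes), with the table as a block between classes and none between species. A sum of a class needed 20 cells. DESeq2 1.42.0, other gates, filters and scalings were alternatives. CPM is over the 15472 shared symbols and the share over all UMIs of a table. For the cell type markers and MALAT1 the CPM is also over all UMIs, so those values have another total than the CPM of members. On simulated counts, of genes changed 2-fold in neurons 37% were recovered in human and 35% in mouse, and of those changed 1.5-fold 7% and 8%, so smaller changes can be missed. The changed genes were drawn from all 12456 whatever their level. Most members have high counts, so these rates do not give the recovery for the members. Named in each class comparison were the 5 members with the largest changes in each direction relative to the set, among those called with 1 sign in both tables of a species, and a list chosen by role. Other genes named among them are examples of lists. The members and lists were chosen with earlier results of these data known. The replicate number pairs human 1 and mouse 1 by their common library; the second libraries share a number only. Results of some single genes are not reported here.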

Additional observations from a re-analysis of the deposited data

Results flagged for a closer look

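The change in STMN2-positive neurons differed between human and mouse in a test of the difference itself (edgeR, n = 2 tables per species). On the scale of all genes 12 of 79 members had a higher change in human than in mouse, where 11.4% of all genes did, and the 12 became 0 without human 2 and 1 without mouse 2. Relative to the summed set 7 were higher and 8 lower in human, where 6.18% and 13.9% of all genes were. These counts lie near the shares over all genes, and without human 2 they were 1 and 1. The log2 differences of the human minus the mouse change were -0.57 for RPL35, -0.50 for RPS7, -0.48 for RPL23A, -0.41 for RPS24, -0.35 for RPL21, -0.34 for RPS3, -0.32 for RPS27A and -0.27 for RPS10. They were 0.32 for RPL18, 0.36 for RPS12, 0.40 for RPS26, 0.48 for RPL12, 0.52 for RPS2 and 0.66 for RPS27L.

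The change in COL1A2-positive cells also differed between human and the 1 mouse table with enough cells, mouse 2. On the scale of all genes 69 members had a higher and 1 a lower change in human, where 6.09% and 7.74% of all genes did. With the looser gate these were 12 and 0, and without human 1 or human 2 the 1 lower call was lost. Relative to the summed set 5 were higher and 4 lower, where 1.04% and 19.7% of all genes were; without human 1 these were 1 and 2. The differences were -1.54 for RPS27L, -0.53 for RPS19, -0.36 for RPL37A and -0.34 for RPS27. They were 0.35 for RPL26, 0.40 for RPL31, 0.46 for RPL35A, 0.58 for RPL29 and 0.60 for RPL14.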

How the results depend on the processing

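Counts of members lower in neurons (77 in each species) stayed within 1.5 times under all alternatives but 1: with no replicate block, the pairing of classes within a table removed, they were 4 in human and 9 in mouse, and the other counts for neurons and COL1A2-positive cells and all counts relative to the set were 0. Mean share differences in points were -11.6 (human) and -11.9 (mouse) for neurons, -2.80 and -1.0 for NEUROG2-positive, -3.26 and -0.327 for cycling and 1.30 and -7.24 for COL1A2-positive cells, and none changed sign when classing or denominators were altered. Stricter gates gave mouse differences of -12.9 (neurons), -1.33 (NEUROG2-positive), -0.50 (cycling) and -9.48 (COL1A2-positive), 3 human COL1A2-positive members lower, and relative to the set 15 mouse members lower and 10 higher in the species difference of that class. Looser gates gave -0.35 (cycling) and -3.83 (COL1A2-positive) in mouse, 1 member lower in the species difference of neurons, and in COL1A2-positive cells 20 lower in mouse and 12 higher and 0 lower in the difference, with 0 and 0 in mouse and 1 and 2 in the difference relative to the set. Medians of single cells gave -1.14 (NEUROG2-positive), -0.29 (cycling) and -8.70 (COL1A2-positive) in mouse. The cycling value in mouse was -0.30 without mitochondrial UMIs, -0.29 also without MALAT1 (where COL1A2-positive cells were at -6.80) and -0.35 without the cell filters. Without the count filter 1 member was lower in the difference of neurons. DESeq2 gave 2 lower there, 6 higher in human COL1A2-positive cells, 4 and 6 higher in human than mouse non-cycling progenitors and neurons, and relative to the set 14 higher in the difference of neurons, 4 higher in human COL1A2-positive cells and 8 higher in their difference. Its size factors gave 6 and 4 higher in the difference of neurons and in human COL1A2-positive cells. With only the classes compared in the fit, human cycling cells had 1 higher and 8 lower (6 and 6 relative to the set), the difference of neurons 1 higher, that of COL1A2-positive cells 0 lower, and the species 1 higher in non-cycling progenitors and 1 and 1 in neurons. Relative to the set this fit gave 9 and 8 in human neurons, 5 and 8 in mouse neurons, 1 and 0 in their difference, 2 and 3 in mouse COL1A2-positive cells and 3 and 2 in their difference. The replicate block between species gave 9 and 20 in non-cycling progenitors and 18 and 16 in neurons. Leaving out 1 table gave a human minus mouse share of -6.47 to 5.67, against -0.399 in the full data, and counts of 0 to 16 higher in the difference of neurons, 0 to 3 higher and 0 to 1 lower in human COL1A2-positive cells, 0 to 1 lower in their difference, 1 to 4 higher and 1 to 13 lower between species in non-cycling progenitors and 1 to 7 both ways in neurons. Relative to the set it gave 8 to 19 higher and 7 to 20 lower in human neurons, 5 to 18 and 8 to 16 in mouse neurons, 1 to 8 and 1 to 7 in their difference, 0 to 2 and 0 to 3 in human COL1A2-positive cells, 2 to 5 and 4 to 10 in mouse ones, and 1 to 7 and 2 to 4 in their difference; without mouse 2 the last 2 have no value. Signs reversed for RPL22 (0.018 without mouse 2; range over the tables left out -0.178 to 0.018), RPS19 (-0.0087 with stricter gates and -0.018 without mouse 2; range -0.018 to 0.066) and RPS27A (0.0021 with looser gates and 0.016 without mouse 1; range -0.027 to 0.016) in mouse neurons, and for RPL24 (-0.032) and RPS2 (0.087) in mouse COL1A2-positive cells with no replicate block. The causes were not tested. With 2 tables per species and 1 for mouse COL1A2-positive cells, small changes can be missed.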

Other observations

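Within STMN2-positive neurons, those without a NEFM UMI had a higher ribosomal protein share than those with one, in all 4 tables; this split was chosen after earlier results of these data were known and was not tested. The shares were 26.5%, 21.6%, 25.1% and 16.7% in NEFM-negative neurons of human 1, human 2, mouse 1 and mouse 2, against 22.1%, 14.9%, 23.5% and 13.7% in NEFM-positive neurons. The NEFM-negative neurons numbered 23, 4, 24 and 32.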
